A study of Mus musculus with 6 samples.

Results

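The genes described here carry out major histocompatibility complex (MHC) class I antigen presentation, together with the immunoproteasome that supplies it with peptides. They are 10 genes listed by name: H2-K1, H2-D1, B2m, Tap1, Tap2, Tapbp, Psmb8, Psmb9, Psmb10 and Nlrc5. A probe set was taken as a member when the array's annotation named 1 of these genes and no other, which gave 27 of the 45037 probe sets tested and 10 of the 18193 genes that have such a probe set. Another 3 probe sets name H2-K1 or H2-D1 together with a further gene and are given apart from the rest.

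Expression was measured in 3 samples of Atxn3-KO mouse embryonic fibroblasts (MEFs), which carry a knockout of the deubiquitinase gene Atxn3, and in 3 samples of Atxn3-WT MEFs, which carry the wildtype gene. MEFs are connective tissue cells cultured from mouse embryos. Both genotypes were kept in the same serum-containing medium, and the labels name no treatment and no interferon. Each sample was hybridized to 1 Affymetrix Mouse Genome 430 2.0 array, which reads a transcript with a set of short oligonucleotides. The methods call the replicates biological, but the sources used here do not give the strain, the number of embryos or the number of cultures behind them. The p-values therefore cover only how these samples vary, which may be technical. The methods describe the knockout and wildtype mice of the study as littermates, but do not say which embryos gave which MEF sample. A difference in genetic background that remained, or one between cultures, cannot be told apart from a difference in genotype. In a bulk sample, fewer cells of a type and less RNA per cell cannot be told apart either.

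Class I molecules display short peptides from inside the cell to CD8+ T cells. Proteasomes cut proteins into peptides, the TAP transporter carries the peptides into the endoplasmic reticulum, tapasin holds an empty class I molecule beside the transporter, and the loaded heavy chain travels to the cell surface with beta-2 microglobulin. In the immunoproteasome, inducible catalytic subunits take the places of the constitutive ones. Interferons raise this machinery in many cells, fibroblasts among them, and NLRC5 is the transactivator that acts at class I promoters.

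The deposited values are log2 levels after robust multi-array average (RMA) normalization. Every log2 fold change or log2 difference between genotypes is Atxn3-KO minus Atxn3-WT, so a value of 1 is a 2-fold change. The array medians lay between 5.97 and 6.0 and the 25th percentiles between 4.36 and 4.39, and arrays of a genotype correlated at 0.9985 to 0.9989. The brighter Atxn3 probe set read 3.60, 3.43 and 3.73 in Atxn3-KO MEFs, against 6.53, 6.81 and 6.66 in Atxn3-WT MEFs. The sources do not say if that probe set falls within the deletion. The fibroblast markers Col1a1 and Vim were bright, with mean log2 levels of 13.19 and 13.78 in Atxn3-KO MEFs and 13.28 and 13.81 in Atxn3-WT MEFs. Ptprc, which marks all leukocytes, stayed under the 25th percentile at 3.57 in Atxn3-KO MEFs and 3.56 in Atxn3-WT MEFs. No gene passed the test among 11 macrophage and dendritic cell markers, 8 lymphocyte markers and 7 endothelial markers. The brightest were Cd14 and Csf1r, Cd4 and Cd3e, and Kdr and Cdh5. Of these, Cd14 had means of 7.79 in Atxn3-KO MEFs and 7.73 in Atxn3-WT MEFs, and Csf1r 6.72 and 6.76. Cd4 had 6.44 and 6.41, and Kdr 6.73 and 6.67, all above the array medians. Cd3e (5.78 in both genotypes) and Cdh5 (5.02 and 5.03) lay under the medians. Lyz2, a macrophage marker, had 0.16 and just missed the threshold (adjusted p = 0.0512). Of the macrophage and dendritic cell markers, 1 passed upward without Atxn3-WT replicate 2 or with either filter on low values. With the mean of a gene's probe sets 2 did. With the probe set of the largest SD, 1 lymphocyte marker passed downward. Among 7 epithelial markers 2 were higher, Krt18 by 1.27 and Epcam by 0.38. The mean of Krt18 in Atxn3-WT MEFs lay under the 25th percentile. Epcam was above the array medians, with means of 8.92 in Atxn3-KO MEFs and 8.54 in Atxn3-WT MEFs. The other 5 epithelial markers did not pass, among them Krt8 with 0.051 and Cdh1 with 0.0016. Lyz2, Krt8 and Cdh1 were chosen for mention after their values were seen. The mean of the epithelial list ran from 5.41 to 5.55 in Atxn3-KO MEFs and from 5.19 to 5.26 in Atxn3-WT MEFs. That of the macrophage and dendritic cell list ran from 5.45 to 5.46 in Atxn3-KO MEFs and from 5.40 to 5.45 in Atxn3-WT MEFs. Among 10 fibroblast markers 2 were higher and 5 lower, with the largest changes in Lum (0.60, dim in both genotypes, its call lost at an adjusted p of 0.0594 without Atxn3-WT replicate 1), Fap (-0.40) and Col3a1 (-0.28, and -0.65 as the mean of its probe sets). Of all genes, 31.8% were called in either direction. The part of these markers in the results below was not tested.

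With each gene read by its brightest probe set, 5 of the 10 presentation genes were higher in Atxn3-KO MEFs, 1 was lower and 4 did not reach an adjusted p under 0.05. Psmb9, Nlrc5, Tap1, Tapbp and H2-D1 rose, and Psmb8 fell. H2-K1, B2m, Tap2 and Psmb10 did not pass. Over all 18193 genes, 17.1% were called higher, 14.7% lower and 31.8% in either direction by the same test, limma with Benjamini-Hochberg adjustment over every probe set. The median log2 fold change of the 10 genes was 0.215, beside 0.0021 over all genes, and their median absolute log2 fold change was 0.27, beside 0.11. No member reached the thresholds of the methods, an adjusted p of at most 0.001 with at least a 2-fold change, which 1.28% of all genes passed upward, 0.649% downward and 1.93% in either direction, as did 1.31% of all probe sets. In 8 of the 10 genes the arrays of the genotypes did not overlap, Atxn3-KO above in 6 and below in 2, and this held for 49.2% of all genes.

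**Figure D1:**
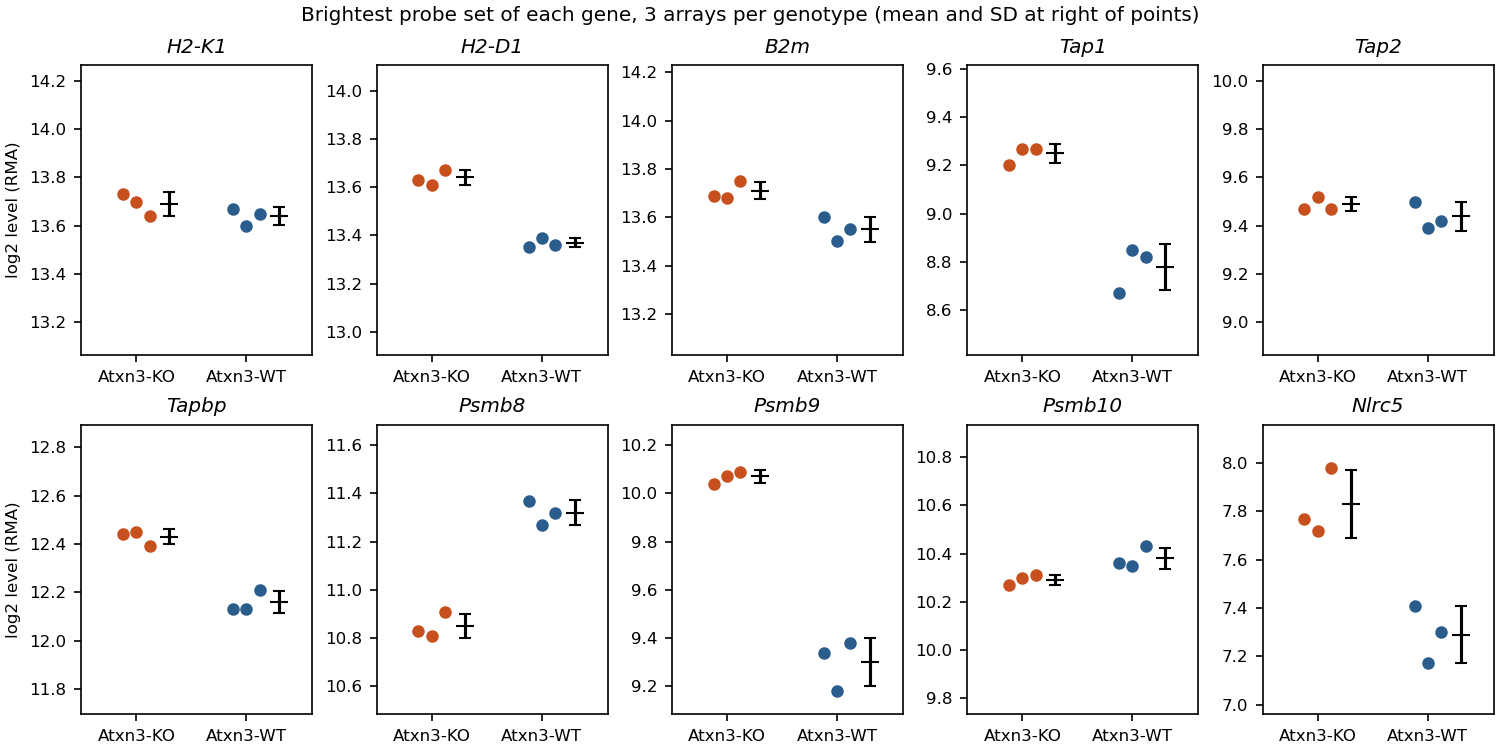
Log2 level (RMA) of the brightest probe set of each gene on the 3 Atxn3-KO arrays (orange) and the 3 Atxn3-WT arrays (blue), with the mean and SD as black bars at the right of the points. Every axis spans the same log2 range around its own centre; Psmb9 shows the widest gap upward, 0.77, and Psmb8 the only called gap downward, -0.47.

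The promoters of these genes are where interferon regulatory factors, NF-kappaB and the NLRC5 complex are known to act, so the sequences upstream of the class I chains and of the genes that moved in opposite directions next to each other are given here. They are RefSeq sequences of build GRCm38.p6, 250 bases before the annotated start, and an entry was found for 8 of the 10 genes. Tap2 and Nlrc5 are named only. Psmb9 and Tap1 lie head to head with starts 226 bases apart, so the stretch between them is printed once. Capitals mark the letters searched for on both strands: AANNGAAA (interferon regulatory factor), GGGNN followed by TTNCC (kappaB), CCAAT (Y box), TGACG (core of the X2 box) and TTCNNNGAA (GAS, the STAT element).
H2-K1 (chr17:34000348-34000597, minus strand): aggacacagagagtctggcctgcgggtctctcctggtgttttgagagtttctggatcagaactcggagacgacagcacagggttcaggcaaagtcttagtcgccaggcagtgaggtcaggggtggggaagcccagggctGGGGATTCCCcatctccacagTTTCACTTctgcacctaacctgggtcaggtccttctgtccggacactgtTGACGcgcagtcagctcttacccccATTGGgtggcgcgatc
H2-D1 (chr17:35262844-35263093, plus strand): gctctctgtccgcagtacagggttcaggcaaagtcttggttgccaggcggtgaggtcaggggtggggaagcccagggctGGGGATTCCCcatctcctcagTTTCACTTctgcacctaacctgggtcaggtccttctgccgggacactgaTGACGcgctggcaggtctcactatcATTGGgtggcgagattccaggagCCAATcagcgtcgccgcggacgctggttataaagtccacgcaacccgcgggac
B2m (chr2:122147437-122147686, plus strand): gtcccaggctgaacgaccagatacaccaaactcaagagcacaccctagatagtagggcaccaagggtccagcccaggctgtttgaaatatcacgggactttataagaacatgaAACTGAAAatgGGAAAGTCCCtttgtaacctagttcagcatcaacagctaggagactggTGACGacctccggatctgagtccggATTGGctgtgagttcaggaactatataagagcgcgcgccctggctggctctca
Psmb9-Tap1 (chr17:34187331-34187555, plus strand, the strand of Tap1): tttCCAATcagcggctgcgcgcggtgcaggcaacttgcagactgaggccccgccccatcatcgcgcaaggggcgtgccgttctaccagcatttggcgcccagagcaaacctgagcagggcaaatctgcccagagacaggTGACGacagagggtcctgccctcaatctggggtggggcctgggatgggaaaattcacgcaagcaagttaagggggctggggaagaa
Psmb8 (chr17:34197945-34198194, plus strand): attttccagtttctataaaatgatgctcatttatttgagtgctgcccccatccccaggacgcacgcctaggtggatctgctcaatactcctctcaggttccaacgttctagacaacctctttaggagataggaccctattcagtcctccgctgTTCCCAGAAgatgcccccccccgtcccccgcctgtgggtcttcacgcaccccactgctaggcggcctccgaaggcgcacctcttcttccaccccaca

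In the H2-K1, H2-D1 and B2m windows the letters of the interferon regulatory factor, kappaB, X2 and Y motifs all occur, and in each of them the kappaB and interferon letters lie close together upstream of TGACG. The stretch between Psmb9 and Tap1 holds CCAAT and TGACG without the other letters, and the Psmb8 window holds only the GAS letters. Of 32851 RefSeq windows of the same length, 21.3% hold AANNGAAA, 4.11% the kappaB letters, 33.8% CCAAT, 17.8% TGACG and 7.02% TTCNNNGAA. The H2-K1 and H2-D1 windows align over 190 bases, of which 166 are identical (87.4%). A match is a description of the letters and not a site, and the absence of a match covers this window only.

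The class I molecule itself was read by 15 single-gene probe sets, which cover only 3 genes. Of these probe sets 7 passed the test, all higher in Atxn3-KO MEFs, beside 12.5% of all probe sets called higher. H2-D1, a classical heavy chain, read 13.63, 13.61 and 13.67 in Atxn3-KO MEFs, against 13.35, 13.39 and 13.36 in Atxn3-WT MEFs. The lowest Atxn3-KO array lay above the highest Atxn3-WT array, and the log2 fold change was 0.27 (SE 0.042, adjusted p = 0.0030), or 20.8% more. The mean of the 9 H2-D1 probe sets had a smaller log2 fold change of 0.17, which passed as well. H2-K1, the other classical heavy chain, read 13.73, 13.70 and 13.64 in Atxn3-KO MEFs, against 13.67, 13.60 and 13.65 in Atxn3-WT MEFs. Its arrays overlapped, and its log2 fold change of 0.047 (95% interval -0.062 to 0.16, adjusted p = 0.527) did not pass. The mean of H2-D1 was 13.64 ± 0.033 in Atxn3-KO MEFs and 13.37 ± 0.019 in Atxn3-WT MEFs, and that of H2-K1 13.69 ± 0.048 in Atxn3-KO MEFs and 13.64 ± 0.036 in Atxn3-WT MEFs (SD, n = 3 each).

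The within-array difference H2-K1 minus H2-D1 was 0.10, 0.09 and -0.04 on the Atxn3-KO arrays, against 0.32, 0.21 and 0.30 on the Atxn3-WT arrays. These values did not overlap, and the genotypes differed by -0.23 (exact two-sided permutation test, p = 0.1, the smallest that 3 against 3 arrays allow; adjusted p = 0.1 over 5 pairs). When the probe sets of each gene were averaged, the difference was -0.05 instead (exact permutation p = 0.1).

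H2-K1 and H2-D1 are near relatives, and 11 of their 13 probe sets carry the suffix _x_at, with which Affymetrix marks sets whose probes can match other transcripts. Of 4 H2-K1 probe sets 1 was higher, 1451931_x_at. It read 13.15, 13.14 and 13.27 in Atxn3-KO MEFs, against 12.89, 12.91 and 12.86 in Atxn3-WT MEFs, a log2 difference of 0.30 (SE 0.051, adjusted p = 0.00455). The other 3 had values of 0.018 to 0.12 and did not pass, so the H2-K1 probe sets disagreed. The mean of all 4 had a log2 fold change of 0.12 with an adjusted p of 0.0359.

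Of 9 H2-D1 probe sets 5 were higher and none lower, beside 12.5% of all probe sets called higher and 13.5% lower. The largest change was that of 1451683_x_at, with 10.76, 10.71 and 10.95 in Atxn3-KO MEFs, against 10.22, 10.37 and 10.35 in Atxn3-WT MEFs, a log2 difference of 0.49 (SE 0.075, adjusted p = 0.0028). The bright 1425545_x_at had 0.28, the dimmer 1450170_x_at had 0.34, and 1426324_at, the only one of the 5 without the suffix, had 0.20 (adjusted p = 0.0107). The call of 1450170_x_at was lost without Atxn3-WT replicate 1 (adjusted p = 0.0536) or replicate 2 (adjusted p = 0.0571). The remaining 4 lay between -0.083 and 0.077. The brightest of them, 1452544_x_at, lay above the array medians, with means of 7.5 in Atxn3-KO MEFs and 7.56 in Atxn3-WT MEFs. Its log2 difference was -0.068 (adjusted p = 0.433). The others were dim, with means of at most 4.93 in Atxn3-KO MEFs and 4.91 in Atxn3-WT MEFs.

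B2m, the light chain shared by all class I molecules, read 13.69, 13.68 and 13.75 in Atxn3-KO MEFs, against 13.60, 13.50 and 13.55 in Atxn3-WT MEFs. Every Atxn3-KO array was above every Atxn3-WT array, yet the log2 fold change of 0.16 (SE 0.048) just missed the threshold, with an adjusted p of 0.0503. The second B2m probe set, 1449289_a_at, read 13.73, 13.70 and 13.75 in Atxn3-KO MEFs, against 13.50, 13.53 and 13.55 in Atxn3-WT MEFs. It passed, with a log2 difference of 0.20 (SE 0.042, adjusted p = 0.0115), and the mean of both probe sets passed as well (0.18, adjusted p = 0.00718).

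Probe sets that name H2-K1 or H2-D1 together with other genes were 3 in number. The probe set of H2-K1 and H2-D1 together read 11.60, 11.58 and 11.62 in Atxn3-KO MEFs, against 11.52, 11.52 and 11.59 in Atxn3-WT MEFs, which overlap, and had a log2 difference of 0.051 (95% interval -0.050 to 0.15, adjusted p = 0.454). The probe set of H2-Q5 and H2-K1 was higher, with 7.41, 7.39 and 7.34 in Atxn3-KO MEFs, against 7.23, 7.06 and 7.11 in Atxn3-WT MEFs, a log2 difference of 0.24 (adjusted p = 0.0184). Its call was lost, at adjusted p-values of 0.0578 to 0.0619, when Atxn3-KO replicate 1 or 2 or Atxn3-WT replicate 2 or 3 was left out. The probe set naming Gm38417, H2-Q2 and H2-D1 had a log2 fold change of -0.069 and did not pass (adjusted p = 0.429).

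Transport and loading were split. Tap1, the first chain of the peptide transporter, read 9.20, 9.27 and 9.27 in Atxn3-KO MEFs, against 8.67, 8.85 and 8.82 in Atxn3-WT MEFs. The groups were separate and the log2 fold change was 0.46 (SE 0.059, adjusted p = 0.00125), or 38.0% more. Tap2, its partner chain, read 9.47, 9.52 and 9.47 in Atxn3-KO MEFs, against 9.50, 9.39 and 9.42 in Atxn3-WT MEFs. These overlapped, and the log2 fold change of 0.051 (95% interval -0.063 to 0.16, adjusted p = 0.51) did not pass. The within-array difference Tap1 minus Tap2 was -0.27, -0.25 and -0.20 on the Atxn3-KO arrays, against -0.83, -0.53 and -0.60 on the Atxn3-WT arrays, a change of 0.41 with no overlap (exact two-sided permutation test, p = 0.1, the smallest possible; adjusted p = 0.1 over 5 pairs).

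Tap1 has 3 further probe sets, all far dimmer and all lower. The brightest of them, 1448177_at, read 5.62, 5.58 and 5.58 in Atxn3-KO MEFs, against 5.80, 5.72 and 5.76 in Atxn3-WT MEFs, a log2 difference of -0.16 (adjusted p = 0.0302). The other 2, 1449803_x_at with -0.18 (adjusted p = 0.0436) and 1420274_at with -0.20 (adjusted p = 0.0166), lay under the 25th percentile of every array in both genotypes. The call of 1448177_at was lost without Atxn3-KO replicate 1, 2 or 3 or Atxn3-WT replicate 1 or 3 (adjusted p = 0.056 to 0.0954), that of 1449803_x_at without Atxn3-KO replicate 1 or 3 or any Atxn3-WT array (0.0931 to 0.116), and that of 1420274_at without Atxn3-WT replicate 3 (0.060). The mean of all 4 Tap1 probe sets had a log2 difference of -0.020 (adjusted p = 0.726), so the rise of Tap1 rests on its brightest probe set. With averaged probe sets, Tap1 minus Tap2 changed by -0.07 (exact permutation p = 0.4).

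Tapbp, which encodes tapasin, read 12.44, 12.45 and 12.39 in Atxn3-KO MEFs, against 12.13, 12.13 and 12.21 in Atxn3-WT MEFs. The arrays did not overlap, and the log2 fold change was 0.27 (SE 0.046, adjusted p = 0.00444). Its dimmer probe set, 1450378_at, read 9.38, 9.36 and 9.03 in Atxn3-KO MEFs, against 9.14, 9.07 and 9.07 in Atxn3-WT MEFs. Atxn3-KO replicate 3 was the lowest of the 6 arrays there, the log2 fold change was 0.16 (adjusted p = 0.268), and without that array it was 0.27 and passed (adjusted p = 0.012).

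The inducible catalytic subunits of the immunoproteasome moved in opposite directions. Psmb9, the inducible beta-1i subunit (LMP2), read 10.04, 10.07 and 10.09 in Atxn3-KO MEFs, against 9.34, 9.18 and 9.38 in Atxn3-WT MEFs. The gap between the groups was wider than the spread within either, and the log2 fold change of 0.77 (SE 0.060, adjusted p = 0.000139), or 70.1% more, was the largest among the 10 genes. Psmb8, the beta-5i subunit (LMP7), read 10.83, 10.81 and 10.91 in Atxn3-KO MEFs, against 11.37, 11.27 and 11.32 in Atxn3-WT MEFs. Here all Atxn3-KO arrays lay below all Atxn3-WT arrays, with a log2 difference of -0.47 (SE 0.050, adjusted p = 0.000537), so that its level fell by 27.8%. The mean of its probe sets had a smaller log2 difference of -0.30 (adjusted p = 0.00449). A second, dim Psmb8 probe set had -0.14 (adjusted p = 0.312), and -0.23 with a call (adjusted p = 0.0446) without Atxn3-WT replicate 2.

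Psmb10, the beta-2i subunit (MECL-1), read 10.27, 10.30 and 10.31 in Atxn3-KO MEFs, against 10.36, 10.35 and 10.43 in Atxn3-WT MEFs. The Atxn3-KO arrays were all lower, but the log2 fold change of -0.087 (95% interval -0.19 to 0.017, adjusted p = 0.209) did not pass.

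The constitutive subunits that these replace were 3 in number, of which 2 fell and none rose, beside 14.7% of all genes called lower. Psmb5, the chymotrypsin-like beta-5 subunit replaced by Psmb8, read 12.34, 12.46 and 12.42 in Atxn3-KO MEFs, against 12.74, 12.73 and 12.74 in Atxn3-WT MEFs, a log2 difference of -0.33 (adjusted p = 0.00202). Psmb7, the beta-2 subunit replaced by Psmb10, fell by 0.21 on the log2 scale (adjusted p = 0.0109). Psmb6, the beta-1 subunit replaced by Psmb9, had -0.071 and did not pass (adjusted p = 0.328).

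Set against its constitutive partner on the same array, each inducible subunit gave non-overlapping genotypes, all with an exact two-sided permutation p of 0.1, the smallest that the design allows. The same held for H2-K1 minus H2-D1 and Tap1 minus Tap2, and thus for all 5 pairs compared. Read singly, 49.2% of all genes had non-overlapping genotypes, and the share over other pairs of genes was not computed. Psmb9 minus Psmb6 was -2.35, -2.40 and -2.36 on the Atxn3-KO arrays, against -3.12, -3.33 and -3.16 on the Atxn3-WT arrays, a change of 0.84. Psmb10 minus Psmb7 changed by 0.13 and Psmb8 minus Psmb5 by -0.14. The last was 0.03 (exact permutation p = 0.7) when the probe sets of each gene were averaged. The differences compare a change across genotypes and not the amounts of the subunits, since probe sets of different genes are not on a common scale.

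Nlrc5, the class I transactivator, read 7.77, 7.72 and 7.98 in Atxn3-KO MEFs, against 7.41, 7.17 and 7.30 in Atxn3-WT MEFs. It was above the array median in all samples, the groups were separate, and the log2 fold change was 0.53 (SE 0.088, adjusted p = 0.0040), or 44.7% more. With SDs of 0.14 in Atxn3-KO MEFs and 0.12 in Atxn3-WT MEFs it varied most between replicates among the 10 genes.

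Over all 27 member probe sets, 11 were higher, 4 lower and 12 did not pass, where 12.5% of all probe sets were called higher, 13.5% lower and 26.0% in either direction. The arrays of the genotypes were separate in 17 of the 27, Atxn3-KO above in 12 and below in 5, beside 41.1% of all probe sets. Of the 4 lower probe sets 3 belong to Tap1, and between 1 and 4 remained past the threshold when 1 array was left out, with 1 left when Atxn3-WT replicate 3 was dropped and 2 left when Atxn3-KO replicate 1 or 3 or Atxn3-WT replicate 1 was dropped. Of the 27, 3 lay under the 25th percentile in both genotypes.

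**Figure D2:**
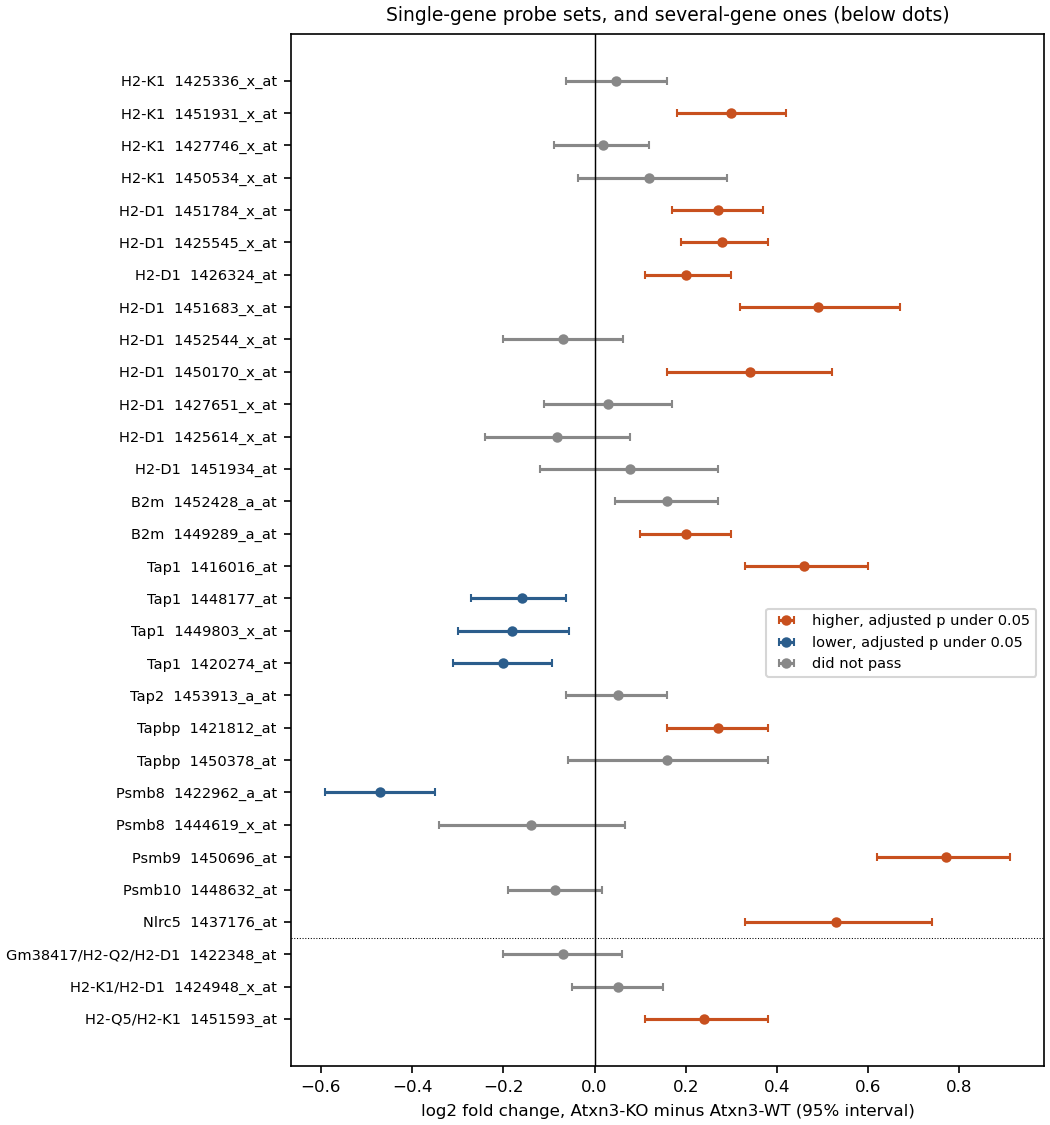
Log2 fold change (Atxn3-KO minus Atxn3-WT, horizontal axis) with its 95% interval for each of the 27 single-gene probe sets and, under the dotted line, the 3 probe sets that name a member with other genes. Orange marks probe sets called higher, blue lower and gray those that did not pass. H2-K1, H2-D1, B2m, Tapbp and Psmb8 each hold called and uncalled probe sets, and Tap1 holds probe sets called in opposite directions.

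Most members sit in the MHC region of chromosome 17. B2m lies on chromosome 2, and Psmb10 and Nlrc5 on chromosome 8. In the order of RefSeq GRCm38.p6, Psmb9, Tap1, Psmb8 and Tap2 follow each other, with class II genes on either side. Along this row the log2 fold changes were 0.77, 0.46, -0.47 and 0.051, so Psmb8 fell between neighbours of which 1 rose and 1 did not pass. On the Psmb9 side, the 2 probe sets naming both H2-DMb2 and H2-DMb1, chains of the class II peptide editor, were higher by 0.89 and 0.79 (adjusted p = 0.000247 and 6.09e-05). H2-DMa, the other chain of that editor, was higher by 0.68 (adjusted p = 0.000726). The single-gene probe set of H2-DMb2 had 0.14 and did not pass. Brd2, a bromodomain gene in the same row, had -0.00057.

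**Figure D3:**
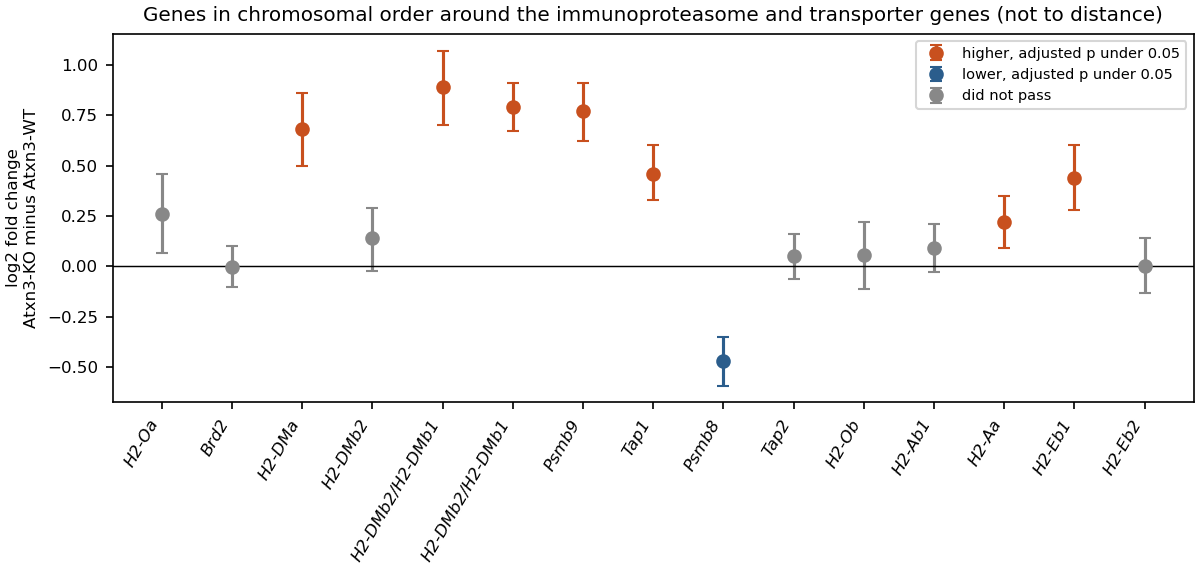
Log2 fold change (Atxn3-KO minus Atxn3-WT, vertical axis) with its 95% interval for the genes around Psmb9, Tap1, Psmb8 and Tap2 in their order on the chromosome, spaced evenly and not by distance. Values run from 0.89 for a probe set of H2-DMb2 and H2-DMb1 to -0.47 for Psmb8, the only called decrease in the row.

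Of 11 other 20S core subunits 1 passed, Psma2, higher by 0.18 (adjusted p = 0.0224), and its call was lost without Atxn3-KO replicate 2 or 3 or Atxn3-WT replicate 1 or 2 (adjusted p = 0.0573 to 0.0743). Of 8 activators and assembly factors 1 was higher, the assembly chaperone Psmg4 (0.59, adjusted p = 0.000101), and 3 were lower. These were Psme4, the PA200 activator (-0.40), Psme3, the PA28-gamma activator (-0.35, and -0.18 as the mean of its probe sets), and Pomp, a maturation factor of the 20S core (-0.27). Psme1, the interferon-inducible PA28-alpha activator, had -0.065 and did not pass. Of all genes, 31.8% were called in either direction. Pomp and Psme1 were chosen for mention after their values were seen.

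Among 13 peptide trimming and loading partners, 2 were higher and 6 lower, beside 31.8% of all genes called in either direction. The higher count was 1 without Atxn3-KO replicate 2 or 3, without Atxn3-WT replicate 1 or 2, and with the replicate number as a block. Erap1, the aminopeptidase that trims class I peptides in the endoplasmic reticulum, rose most, with a mean of 8.33 in Atxn3-KO MEFs and 7.56 in Atxn3-WT MEFs, a log2 difference of 0.77 (SE 0.059, adjusted p = 0.000128). Blmh and Tpp2, cytosolic peptidases, fell by 0.44 and 0.39 on the log2 scale (adjusted p = 0.000326 and 0.00186).

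Of 18 factors known to act at class I promoters 2 were higher and 4 lower, beside 31.8% of all genes called either way. This balance depended on the processing: 4 to 6 were higher with median centring, an intensity trend, array weights, averaged probe sets or a filter on low values, and 2 were lower without Atxn3-WT replicate 1 or 2. Nr2f1, the nuclear receptor COUP-TF1, fell by 0.68, while Irf9, the DNA-binding part of ISGF3, and Ezh2, the H3K27 methyltransferase, were higher by 0.39 and 0.29. Irf1, an interferon regulatory factor that acts at class I genes, was lower by 0.22 (adjusted p = 0.0119), and Rfx5, the X-box factor, had 0.024 and did not pass. Irf1 and Rfx5 were chosen for mention after their values were seen. Of 13 genes of the type I and type II interferon receptors and their signaling, 2 were higher and 2 lower. The share of all genes called in either direction was 31.8%. Socs1, the feedback inhibitor of Janus kinases, and Jak2, a kinase of the interferon-gamma receptor, were higher by 0.73 and 0.38. The 2 lower genes were Ptpn11, a phosphatase, with -0.14 (adjusted p = 0.0405), and Ifnar2, a chain of the type I interferon receptor, with -0.14 (adjusted p = 0.0439), which was named after its value was seen. Neither was called when any 1 of the 6 arrays was left out, with the replicate block or with median centring, and the adjusted p of Ptpn11 without 1 array was 0.0748 to 0.109.

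Interferon-stimulated genes outside presentation were mostly higher in Atxn3-KO MEFs. Of 24 measured, 19 rose, 1 fell and 4 stayed short of the threshold, and their median log2 fold change was 0.57. Over all genes, 17.1% were called higher and 14.7% lower, and the median was 0.0021. Ifit3, an antiviral effector, had a mean of 9.41 in Atxn3-KO MEFs and 7.77 in Atxn3-WT MEFs, a log2 difference of 1.64 (SE 0.066, adjusted p = 5.88e-06). Usp18, which removes ISG15 and dampens interferon signaling, and Irf7, the regulator of type I interferon genes, were higher by 1.44 and 1.36. Cxcl10, a chemokine, was the gene that went the other way, lower by 0.36 on the log2 scale (adjusted p = 0.00129). The list mean ran from 9.65 to 9.68 on the Atxn3-KO arrays and from 8.98 to 9.05 on the Atxn3-WT arrays.

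Of 10 class II presentation genes 3 were higher and 7 did not pass, beside 31.8% of all genes called in either direction. H2-DMa has been given above, H2-Eb1, a class II beta chain, was higher by 0.44 (adjusted p = 0.0031), and H2-Aa, an alpha chain, by 0.22 (adjusted p = 0.0235). The call of H2-Aa was lost without Atxn3-KO replicate 2 or 3 or Atxn3-WT replicate 1 or 2 (adjusted p = 0.0512 to 0.0822) and with the mean of its probe sets (0.10). Cd74, the invariant chain, had -0.015 (adjusted p = 0.866) and was chosen for mention after its value was seen.

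**Figure D4:**
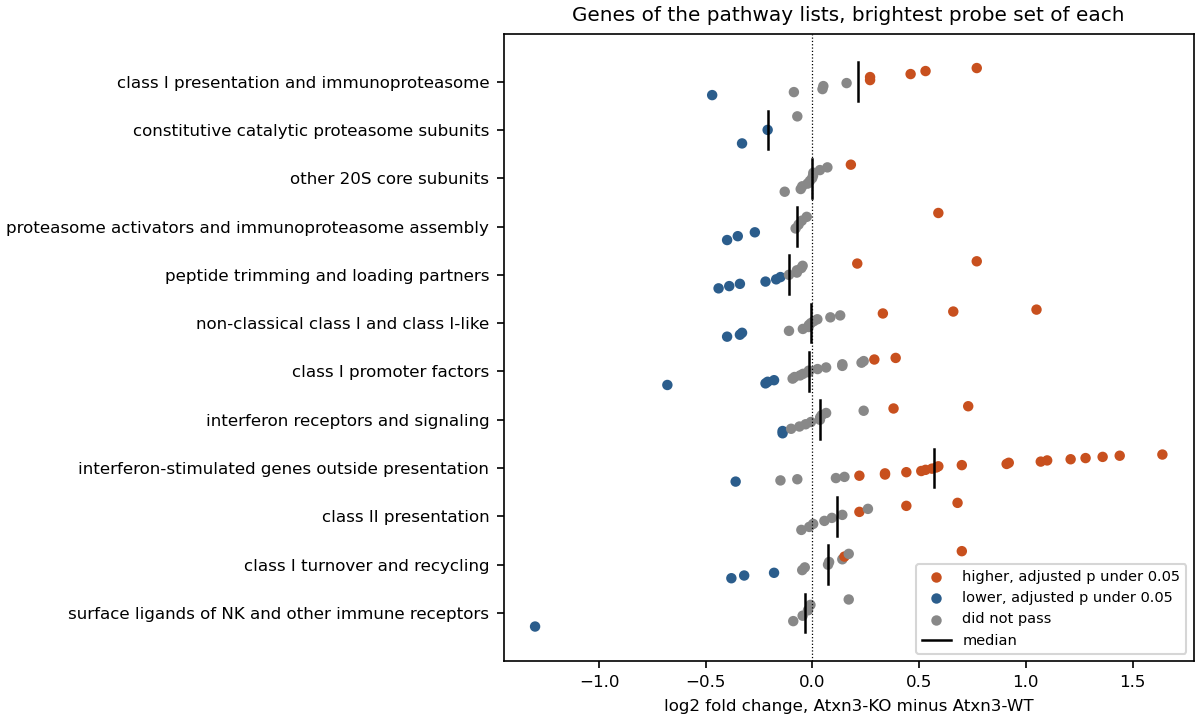
Log2 fold change (Atxn3-KO minus Atxn3-WT, horizontal axis) of every measured gene of the presentation genes and of the related lists, each gene read by its brightest probe set, with the list median as a black bar. Orange marks genes called higher, blue lower and gray those that did not pass; the interferon-stimulated list, with a median of 0.57, has most of its points to the right of 0.

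Psmb9, the member with the largest change, was compared with 34944 other single-gene probe sets by the root mean square difference of their mean-centred log2 levels over the 6 arrays. The 5 nearest were those of Lgals3bp (0.029), Tdrd7 (0.030), Card19 (0.036), Tcaf1 (0.037) and Dbp (0.038). Lgals3bp, a secreted galectin-3-binding glycoprotein, read 11.15, 11.16 and 11.15 in Atxn3-KO MEFs, against 10.45, 10.28 and 10.41 in Atxn3-WT MEFs, with the same dip in Atxn3-WT replicate 2 as Psmb9. All probe sets compared share these 6 arrays and their 2 genotypes, and a gene with a like difference between genotypes is near by this measure.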

How the data were processed

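The authors deposited log2 values for 45101 probe sets on 6 Affymetrix arrays, which their methods describe as RMA-normalized (background correction, quantile normalization and summarization over probes). RMA and limma also stand in the submitters' processing notes, without versions. Quantile normalization removes any shift common to all genes. Samples were grouped by the genotype in the labels.

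From these values limma 3.58.1 in R 4.3.3 fitted Atxn3-KO minus Atxn3-WT with lmFit, eBayes and equal array weights, since the methods name a weighted model but not its weights. The Benjamini-Hochberg adjustment ran over 45037 probe sets, 64 controls being left out, with no filter on low values. Of 34945 probe sets naming 1 gene, 34741 matched RefSeq GRCm38.p6; 932 named several genes and 9160 were unnamed. A gene was read by its probe set with the highest mean. Within-array differences were tested by exact permutation in Python 3.11.15 with SciPy 1.17.1.

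The members and lists were chosen with earlier results of these data known. Named were all members, the H2 probe sets of several genes that include H2-K1 or H2-D1, up to 3 called genes per list by size of change (up to 2 by level where none passed), Atxn3 and the 5 probe sets nearest to Psmb9. Other names fall outside this rule, and not all of them are marked. Among those without a mark are Cxcl10, Brd2, Psmb6 and the further H2 probe sets of several genes. Marker genes named only by level are Col1a1, Vim and Ptprc, chosen after their values were seen. In simulated data of the same 45037 probe sets, 70% of 50 changed by 0.5 and 96% of 50 changed by 1 were recovered, with 6 false calls. The simulation drew independent noise and changed far fewer probe sets than the 26.0% called in the data. Its rates therefore do not carry over to the data. The number of arrays limits the precision. The fit was repeated with estimated array weights, with a replicate block, after further normalization, with filters on low values, under other variance models, with other rules for a gene's probe set and without each array in turn.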

Additional observations from a re-analysis of the deposited data

How the results depend on the processing

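The counts of presentation genes called higher (5 or 6), called lower (1) and past the thresholds of the methods (0) kept their level under every alternative run. B2m passed too, with adjusted p-values of 0.0399 with arrays centred on their medians, 0.000603 with an intensity trend, 0.0496 with array weights, and 0.0312 and 0.0134 with probe sets under the 25th percentile or the median left out. With the mean of a gene's probe sets B2m (0.00718) and H2-K1 (0.0359) passed and Tap1 did not. The rule that takes a gene's probe set with the largest SD used the SD over all arrays of both genotypes. It therefore favours probe sets that differ between genotypes, and its count of genes called is no independent check. The number of member probe sets called higher was 6 in place of 11 when those ending in _x_at were left out. These are 13 of the 27 member probe sets, and this alternative was chosen after seeing the data. The number called lower was 4, and it was 2 with an intensity trend, 2 without probe sets under the 25th percentile, 1 without those under the median, 1 with the replicate block, and 1 to 4 with 1 array left out. Both filters on low values removed Tap1 1449803_x_at and 1420274_at themselves, and the median filter also removed 1448177_at. With the mean of a gene's probe sets, the within-array differences Psmb8 minus Psmb5 and Tap1 minus Tap2 changed sign, to 0.03 and -0.07, and Tap1 went to -0.020. With 1 array left out, values near 0 changed sign within these ranges: H2-K1 1427746_x_at -0.0020 to 0.040, H2-D1 1427651_x_at -0.017 to 0.068, Cd14 -0.0016 to 0.11, Csf1r -0.093 to 0.015, Cd3e -0.053 to 0.068 and Cdh5 -0.042 to 0.015. Csf1r also went to 0.12 with the mean of its probe sets (adjusted p = 0.0457), Cd3e to 0.012, 0.018 and 0.011 with median centring, array weights and a further quantile normalization, and Cdh5 to 0.0021 with median centring. Apart from probe sets taken out of the counts, the cause of these changes was not tested.

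Replicate numbers do not pair the samples: deviations from the group means of same-numbered arrays correlated at 0.0212, -0.0227 and -0.0361. With the replicate number as a block, 9801 probe sets were called in place of 11696, and 7 of 113 results lost their call, none of them the brightest probe set of a presentation gene.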

Other observations

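Of 15 non-classical and class I-like genes 3 were higher and 3 lower, beside 31.8% of all genes called in either direction, and the lower count was 1 without Atxn3-WT replicate 1 or 2 and with probe sets under the median left out. Cd1d1, which presents lipids to NKT cells, had a mean log2 level of 9.25 in Atxn3-KO MEFs and 8.20 in Atxn3-WT MEFs, a log2 difference of 1.05 (SE 0.054, adjusted p = 1.89e-05). Fcgrt, the neonatal Fc receptor chain that pairs with beta-2 microglobulin, was higher by 0.66, and Mr1, which presents vitamin B metabolites to MAIT cells, was lower by 0.40 on the log2 scale. Of 6 surface ligands of receptors on NK cells, T cells or phagocytes (Ulbp1, Cd47, Cd274, Pdcd1lg2, Nectin2 and Pvr) 1 was lower and none higher, beside 31.8% of all genes called in either direction. Ulbp1, a ligand of the NK receptor NKG2D, had 5.78 in Atxn3-KO MEFs and 7.08 in Atxn3-WT MEFs, a log2 difference of -1.30 (SE 0.11, adjusted p = 0.000224). The lower count was 2 with the mean of a gene's probe sets and 3 with the probe set of the largest SD. The higher count was 1 with either of these rules, with an intensity trend, with either filter on low values, and without Atxn3-KO replicate 1.

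Of 11 genes of class I turnover and recycling 2 were higher and 3 lower, beside 31.8% of all genes called either way. The higher count was 1 whichever of the 6 arrays was left out and with the replicate block, and 6 with an intensity trend. The lower count was 1 without Atxn3-KO replicate 2 or 3 or Atxn3-WT replicate 3 and with the replicate block. Marchf8, a membrane ubiquitin ligase, was higher by 0.70 (adjusted p = 0.000418), and Sel1l, the adaptor of an endoplasmic reticulum ubiquitin ligase, fell by 0.38 on the log2 scale (adjusted p = 0.000833). Marchf9, a relative of Marchf8, fell by 0.32 (adjusted p = 0.029), and its call was lost without Atxn3-KO replicate 2 or 3 or Atxn3-WT replicate 2 or 3 (adjusted p = 0.0856 to 0.0914).

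Among other probe sets that name several H2 genes, one of those for H2-T-ps and H2-T23, the mouse Qa-1 gene, was lower by 0.46 (adjusted p = 0.00189) while the other had -0.14 and did not pass (adjusted p = 0.116). The probe set of H2-Q9 and H2-Q7, Qa-2 genes, was higher by 0.32 (adjusted p = 0.00573), and that of H2-T9, H2-T22 and H2-T10 on the brighter side had -0.038 (adjusted p = 0.618). Those of H2-Q6, H2-Q8 and H2-Q4 (0.22, adjusted p = 0.0337) and of Gm38417, LOC547349 and H2-Bl (0.23, adjusted p = 0.0171) were higher. That of H2-Q6 and H2-Q8 had -0.0092 and did not pass.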
